A study of Oryza sativa with 14 samples.

Results

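Estrela A is a japonica rice cultivar. In its untreated seedlings, 327 of 57194 probe sets stood at least 2 log2 units (4-fold) away from the same probe sets in untreated seedlings of both Bengal and Nipponbare, in the same direction. Of these, 83 were higher and 244 were lower in Estrela A. A probe set is a group of short probes that the array uses to read a transcript. Those with identifiers ending in _s_at or _x_at, here called shared, can also bind other transcripts. There were 28 and 36 such members. The members were selected on the control means of the 3 cultivars, so their levels in the controls are given as a description without a test. The same rule set 242 probe sets apart in Bengal (97 higher, 145 lower) and 507 in Nipponbare (361 higher, 146 lower).

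The series measured mRNA with the Affymetrix Rice Genome Array in 7 groups of Oryza sativa ssp. japonica, with 2 RNA pools per group and 6 whole seedlings per pool. All seedlings were 12 days old and had grown at 28 °C, with 2 days in the dark and 10 days of light at a 12 h photoperiod. The 3 controls were unmodified Estrela A, Bengal and Nipponbare. The stable mutant came from gamma-irradiated Estrela A, had passed over 10 generations of selfing and stood about 45 cm shorter than its parent at maturity. The stable transgenic line was a Bengal line in the T3 generation that makes the antibody fragment ScFvT84.66. The unstable transgenic line was a Nipponbare line in the T1 generation with 1 copy of BCBF1 under the stress-inducible RD29A promoter of Arabidopsis, plus an hpt gene. The unstable mutant was Nipponbare in the M1 generation after 100 Gy of gamma rays. Both transgenic lines had germinated on 30 mg/L hygromycin B, which the other groups had not received. Each modified group was 1 line, and nothing in the labels ties a pool to a separate sowing, so a p-value here reflects the spread among pools alone.

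Cultivars of one subspecies differ in sequence, in gene content and in how strongly they transcribe the genes they share. A short probe also binds less target where the sequence differs from the probe, which lowers the reading at an unchanged amount of RNA. On these arrays a difference in transcript level and a difference in the probed sequence cannot be told apart, and neither can fewer cells of a type and less RNA per cell. The labels used here give no date of growth or hybridisation, so cultivar and any such batch cannot be told apart either.

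Levels below are log2 expression, and replicate arrays correlated at r of 0.993 to 0.997 across probe sets. The median of all values was 5.86 and the lower quartile 4.43, and signal over background was not tested. In Estrela A the 11 photosynthesis genes measured had a median level of 11.69, the 36 root markers 8.92 and the 30 markers of grain remnants 7.70. Each of these medians lay above the median of all values. The markers were picked by gene symbol. The same medians lay between 11.31 and 11.77, 8.89 and 9.45, and 7.27 and 8.29 in the other 2 controls, and none of these genes was a member. The part of these tissues in the results was not tested.

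The members had a bright and a dim side. The 83 higher members had a median level of 8.21 in the Estrela A control, against 4.52 in Bengal and 4.46 in Nipponbare. The 244 lower members had a median of 4.72 in Estrela A, against 8.77 in Bengal and 8.81 in Nipponbare. Of the lower members, 94 had an Estrela A mean under the lower quartile of all values, and 39 and 40 of the higher members lay under it in Bengal and Nipponbare. Folds against levels that low depend on array background.

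Bengal and Nipponbare lay close to each other for most members. Their means were within 1 log2 unit for 78 of the 83 higher and 209 of the 244 lower members. The rule puts both controls on the same side of Estrela A, and the share over all probe sets was not taken. These counts therefore describe the members and do not set them apart from other probe sets. The smaller of the 2 gaps to Estrela A had a median of 2.89 for the higher and -3.17 for the lower members. It reached 3 log2 units in 39 higher and 139 lower members, and 5 log2 units in 14 and 42. Just inside the threshold were OsAffx.15227.1.S1_s_at at 2.00 and LOC4343026 at 2.01, with Os.9209.2.S1_at at -2.00 and Os.11197.2.S1_x_at at -2.01 on the lower side. Just outside were OsAffx.31019.1.S1_at at 1.99 and Os.57295.1.S1_at at 1.97, with Os.54408.1.S1_x_at at -2.00 (before rounding just short of the threshold) and LOC4338413 at -1.98 on the lower side.

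Few members carried an informative gene name. One gene was found for 24 of the 83 higher members (28.9%) and for 124 of the 244 lower members (50.8%), against 39.2% of all probe sets tested. These were 121 distinct genes, of which 11 had an informative name and the rest only a LOC identifier. Among all genes measured, 2458 of 17905 had an informative name. Identifiers that begin with OsAffx made up 25.3% of the higher and 12.3% of the lower members, against 44.6% of all probe sets. These shares were not tested against each other.

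The 2 nicotianamine synthase genes NAS1 (LOC4332608) and NAS2 (LOC4332607) lie side by side in the reference gene order. Nicotianamine binds iron and other metals in plants, and grasses build from it the phytosiderophores that they release to take up iron. NAS1 (Os.1478.1.S1_at) read 4.03 and 4.05 in the Estrela A control and 4.87 and 4.74 in the stable mutant. It read 11.62 and 11.89 in the Nipponbare control and 13.63 and 11.89 in the unstable transgenic line. In the Bengal control it read 8.24 and 10.53, in the stable transgenic line 10.43 and 5.54, and in the unstable mutant 6.65 and 11.76. The 4 arrays of the Estrela A background were thus low and close together, the Nipponbare control and the unstable transgenic line high, and 3 groups were split between their 2 pools.

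NAS2 (Os.9311.1.S1_at) showed the same split. It read 6.36 and 6.31 in the Estrela A control, 6.87 and 6.78 in the stable mutant, and 12.52 and 12.67 in the Nipponbare control. It read 8.39 and 10.44 in the Bengal control, 10.81 and 6.67 in the stable transgenic line, and 7.94 and 12.34 in the unstable mutant. The low pool of each split group was the same for both genes. The stable mutant lay below the unstable transgenic line by 7.96 log2 units for NAS1 (SE 1.59, limma adjusted p = 0.00207) and by 6.41 for NAS2 (SE 1.35, adjusted p = 0.00296). Against the split groups neither gene passed, with differences of -3.18 (stable transgenic, adjusted p = 0.247) and -4.40 (unstable mutant, adjusted p = 0.125) for NAS1. NAS2 differed there by -1.92 (adjusted p = 0.435) and -3.32 (adjusted p = 0.184).

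Of 4 other iron genes, chosen after their values were seen, 1 had a pattern partly like that of NAS1 and NAS2. YSL15 (LOC9268232), of the YSL family of metal-chelate transporters, averaged 6.64 ± 0.08 (SD, n = 2) in the Estrela A control and 6.71 ± 0.13 in the stable mutant. It averaged 7.66 ± 0.62 in the Bengal control, 9.88 ± 0.45 in the Nipponbare control and 9.91 ± 0.72 in the unstable transgenic line, while the unstable mutant had 7.82 ± 1.39. The stable transgenic line averaged 6.95 ± 0.06, without the split between pools that NAS1 and NAS2 had there. YSL15 was thus lowest of the 3 controls in Estrela A, but its gap to Bengal was less than the 2 log2 units of the rule. The other three did not show this order. NAAT1, which encodes an aminotransferase of phytosiderophore synthesis, averaged between 10.32 and 10.66 in the 3 controls. NAS3, another nicotianamine synthase gene, averaged 10.85 ± 0.25 (SD, n = 2) in the Estrela A control, 11.20 ± 0.21 in Bengal and 10.01 ± 0.22 in Nipponbare. IRT1, an iron transporter gene, averaged 5.53 ± 0.07 in Estrela A and 5.57 ± 0.01 in Bengal, against 11.07 ± 0.26 in Nipponbare. Low IRT1 was therefore found in 2 of the 3 controls, and IRT1 was no member. It was also low in the unstable mutant, a Nipponbare line, at 5.84 ± 0.04, against 10.56 ± 0.36 in the unstable transgenic line. The stable mutant averaged 5.84 ± 0.31 and the stable transgenic line 5.24 ± 0.37.

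Cht2 (LOC4349267, also Cht8), which encodes a chitinase, an enzyme that cuts the chitin of fungal walls, was a member in both directions. Its probe set Os.3415.1.S1_at read 3.36 and 3.37 in the Estrela A control, 8.97 and 9.50 in Bengal and 8.90 and 8.41 in Nipponbare. Its probe set Os.22058.1.S1_at ran the other way, at 7.29 and 6.96 in Estrela A, 4.41 and 4.69 in Bengal and 3.67 and 3.81 in Nipponbare. The remaining one, the shared Os.3415.1.S1_s_at, was near level at means of 9.28, 8.94 and 8.37. The stable mutant followed its parent on each of them, at 3.45, 6.44 and 8.79. Against the stable transgenic line it lay 5.48 lower on the first (SE 0.29, limma adjusted p = 7.22e-08) and 2.07 higher on the second (SE 0.13, adjusted p = 3.64e-07).

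TPI (LOC4325211, triosephosphate isomerase, a glycolytic enzyme) was lower on Os.22886.1.A1_at, with 7.14 and 7.43 in Estrela A against 10.00 to 10.10 in Bengal and 9.96 to 10.17 in Nipponbare. Its other probe set was level, with means of 13.23 in Estrela A, 13.33 in Bengal and 13.03 in Nipponbare. CLA1 (LOC4338768, also DXPS), which encodes the first enzyme of the plastid isoprenoid pathway, was lower on Os.7505.1.S1_at at 4.53 and 5.04 against 6.86 to 7.40 in the other controls. Its other probe set averaged 10.15, 9.58 and 10.05. FTSH9 (LOC4326617), of the FtsH family of membrane proteases, was higher on Os.51057.1.S1_at at 9.45 and 9.60 against 6.94 to 7.61. Its other probe set, a shared one, averaged 9.89, 9.67 and 9.87. In each of these 3 genes 1 probe set separated Estrela A and the other did not. Whether sequence, transcript form or signal from other transcripts differs was not tested.

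XTH8 (LOC4345019, also XRT5), a xyloglucan endotransglucosylase/hydrolase that remodels the cell wall, was bright in all groups. It read 9.76 and 9.53 in Estrela A and 9.81 and 9.8 in the stable mutant, and between 11.75 and 12.42 on the 10 arrays of the other cultivars. AT15 (LOC4347960), of the BAHD acyltransferase family, read 5.42 and 5.11 in Estrela A and 4.98 and 5.31 in the mutant, and between 7.84 and 9.77 elsewhere. The arrays of the Estrela A background did not overlap the others for either gene. AO-4 (LOC4342932) was lower on 2 of its 4 probe sets, at means of 3.41 and 5.88 against 6.97 to 8.52. STLP5 (LOC4350756) averaged 7.16 ± 0.18 in Estrela A against 9.83 ± 0.01 in Bengal and 9.46 ± 0.02 in Nipponbare.

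SWEET12 (LOC4332825), of the SWEET family of sugar transporters, was the named member with the widest scatter on the higher side. It read 6.75 and 7.96 in Estrela A, 5.28 and 6.33 in the stable mutant, and 4.49 to 5.19 in the Bengal and Nipponbare controls. The unstable mutant read 7.01 and 5.34, so its upper pool overlapped the Estrela A range. The stable mutant differed from the stable transgenic line by 0.63 log2 units (SE 0.51, limma adjusted p = 0.505), and SWEET12 passed no comparison of the stable mutant.

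**Figure D1:**
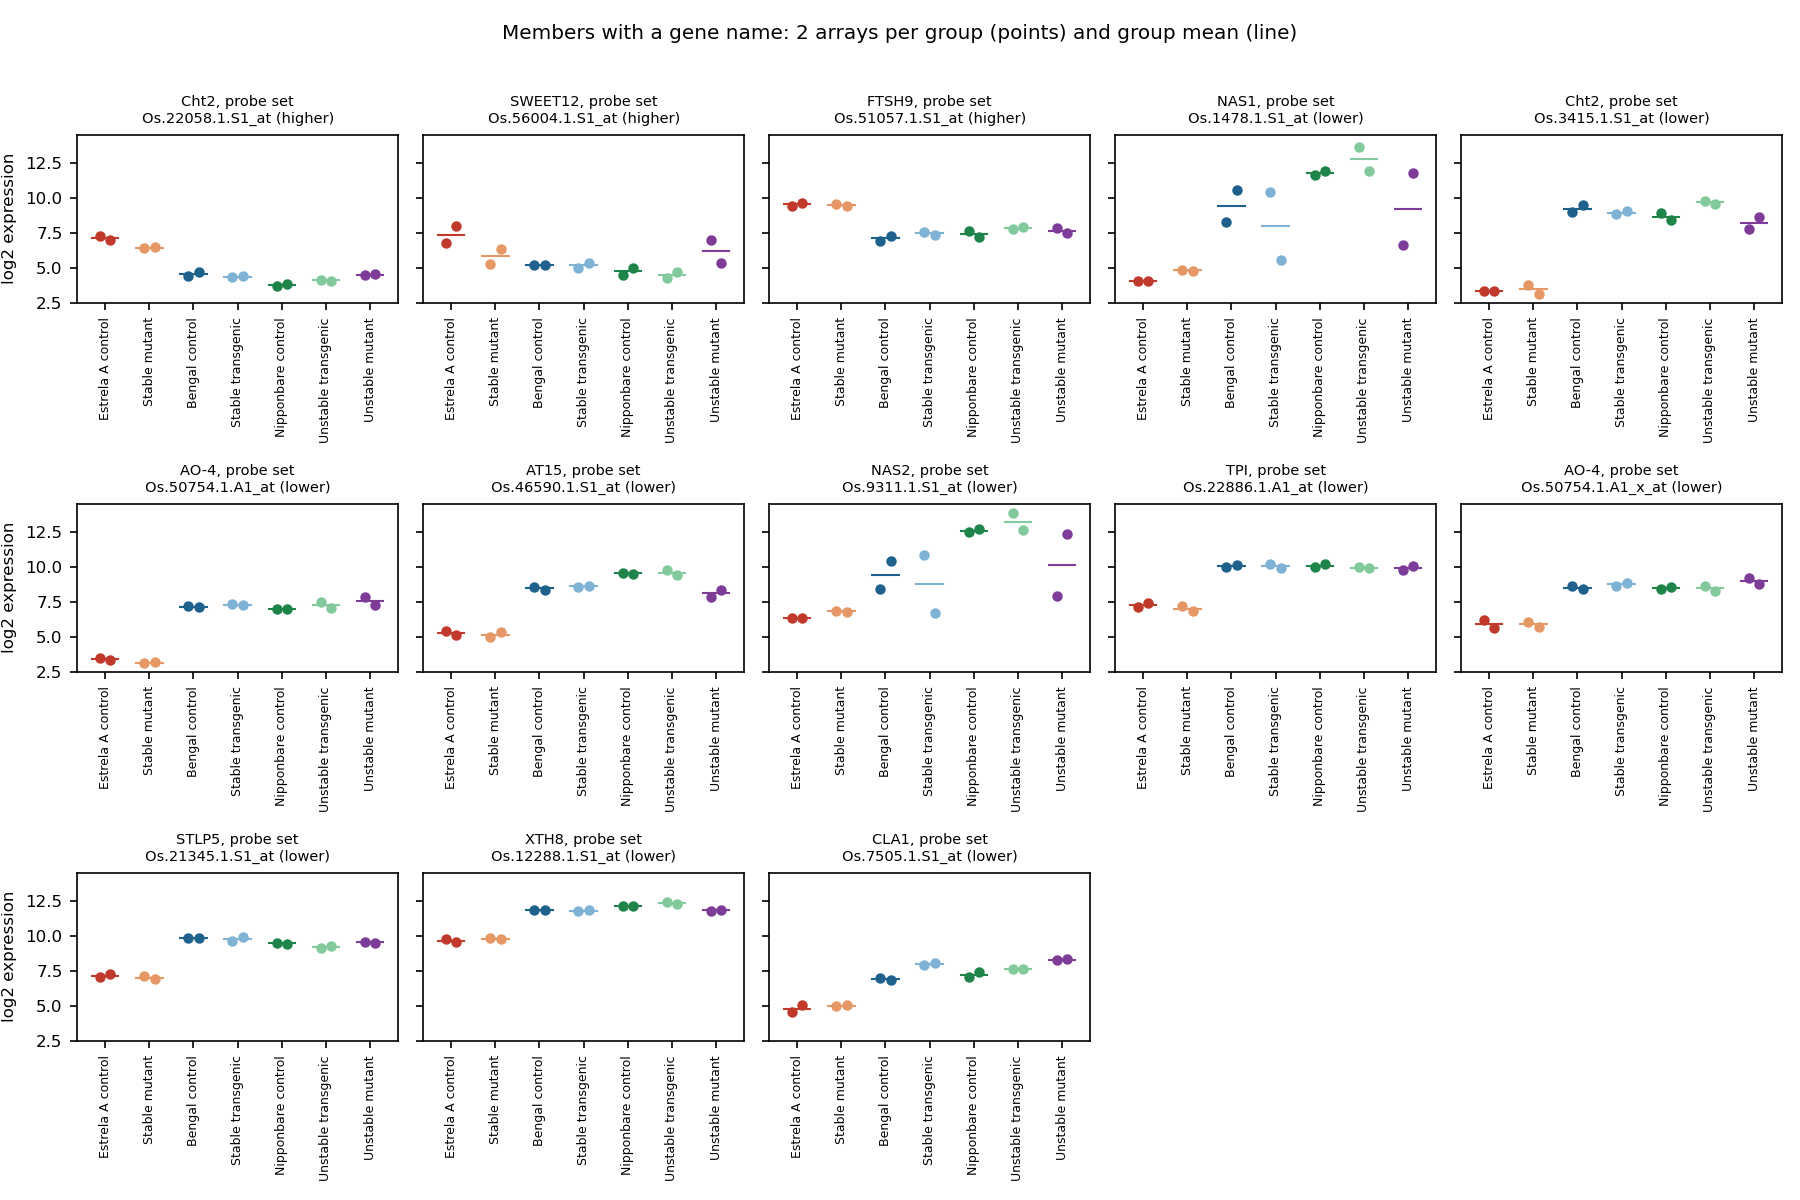
Log2 expression (vertical axis) of the 13 members with a gene name, in the 7 groups (horizontal axis), with 1 point per array and a line at the group mean. The Estrela A control and the stable mutant lie together and apart from the other groups in most panels, while NAS1 and NAS2 split between the 2 pools of the Bengal control, the stable transgenic line and the unstable mutant.

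The widest gaps were in probe sets with no gene name. Os.6645.1.S1_at read 3.74 and 3.70 in the Estrela A control, 13.60 and 13.84 in Bengal and 13.26 and 13.32 in Nipponbare. OsAffx.16037.2.S1_at read 12.70 and 12.47 in Estrela A, 3.20 and 3.40 in Bengal and 3.75 and 3.37 in Nipponbare. Each thus went from near the floor of the array to near its top. The stable mutant kept both states, at 3.61 and 3.84 for Os.6645.1.S1_at and 12.70 and 12.66 for OsAffx.16037.2.S1_at.

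Among genes with only a LOC identifier, LOC4342250 (Os.28541.1.S1_at) was the highest above the others, at 12.31 and 12.16 against 4.51 to 4.80 in the other controls. LOC4352346 (Os.5390.1.S1_at) was the brightest of the 6 that were followed on this side, at 13.45 and 13.46 against 6.02 to 8.49. The member probe sets of LOC4351993, LOC4325626 and LOC4352244 averaged 8.16, 8.22 and 7.22 in Estrela A and at most 4.27 in either other control. On the lower side LOC4333427 averaged 3.59 against 10.83 and 11.27, LOC4348060 3.53 against 10.60 and 10.60, LOC4341223 4.38 against 11.37 and 11.27, and LOC4348034 3.17 against 10.41 and 9.62. Apart from LOC4352346, the low side of each of these probe sets lay below the median of all values (5.86), and the high side lay above it in all. These are levels of 1 probe set each, and 2 of the genes had another probe set that was level. Os.22682.1.S1_a_at of LOC4351993 averaged 11.42 in Estrela A, 11.19 in Bengal and 11.30 in Nipponbare. The shared Os.52409.1.S1_s_at of LOC4348060 averaged 9.59, 9.78 and 9.63 in the same order.

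LOC4328727 was lower on all 4 of its probe sets. Its probe set Os.7929.1.S1_a_at read 4.76 and 4.59 in Estrela A, 12.81 and 13.01 in Bengal and 13.35 and 13.16 in Nipponbare. The gaps of the 4 ran from -3.68 to -8.24. LOC4329504 was also lower on 4 of 4, with gaps from -2.17 to -5.44. LOC4349188 moved both ways, with Os.47438.1.A1_at at 10.81 and 10.65 against 3.31 to 3.67, and Os.5441.1.S1_at at 5.73 and 5.40 against 8.76 to 10.04.

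Most member genes with several probe sets were not uniform. Of the 121 genes, 51 had 2 or more probe sets, and in 12 of these all were members. The 55 probe sets that were no member but belonged to a gene with members in 1 direction were compared with both other controls. In 6 of them Estrela A lay at least 1 log2 unit away in the direction of the member, in 37 it lay within 1 log2 unit of both, and in 0 it lay that far in the opposite direction. Among the 38 of these probe sets with a group mean at or above 5.86, the first 2 counts were 6 and 25.

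**Figure D2:**
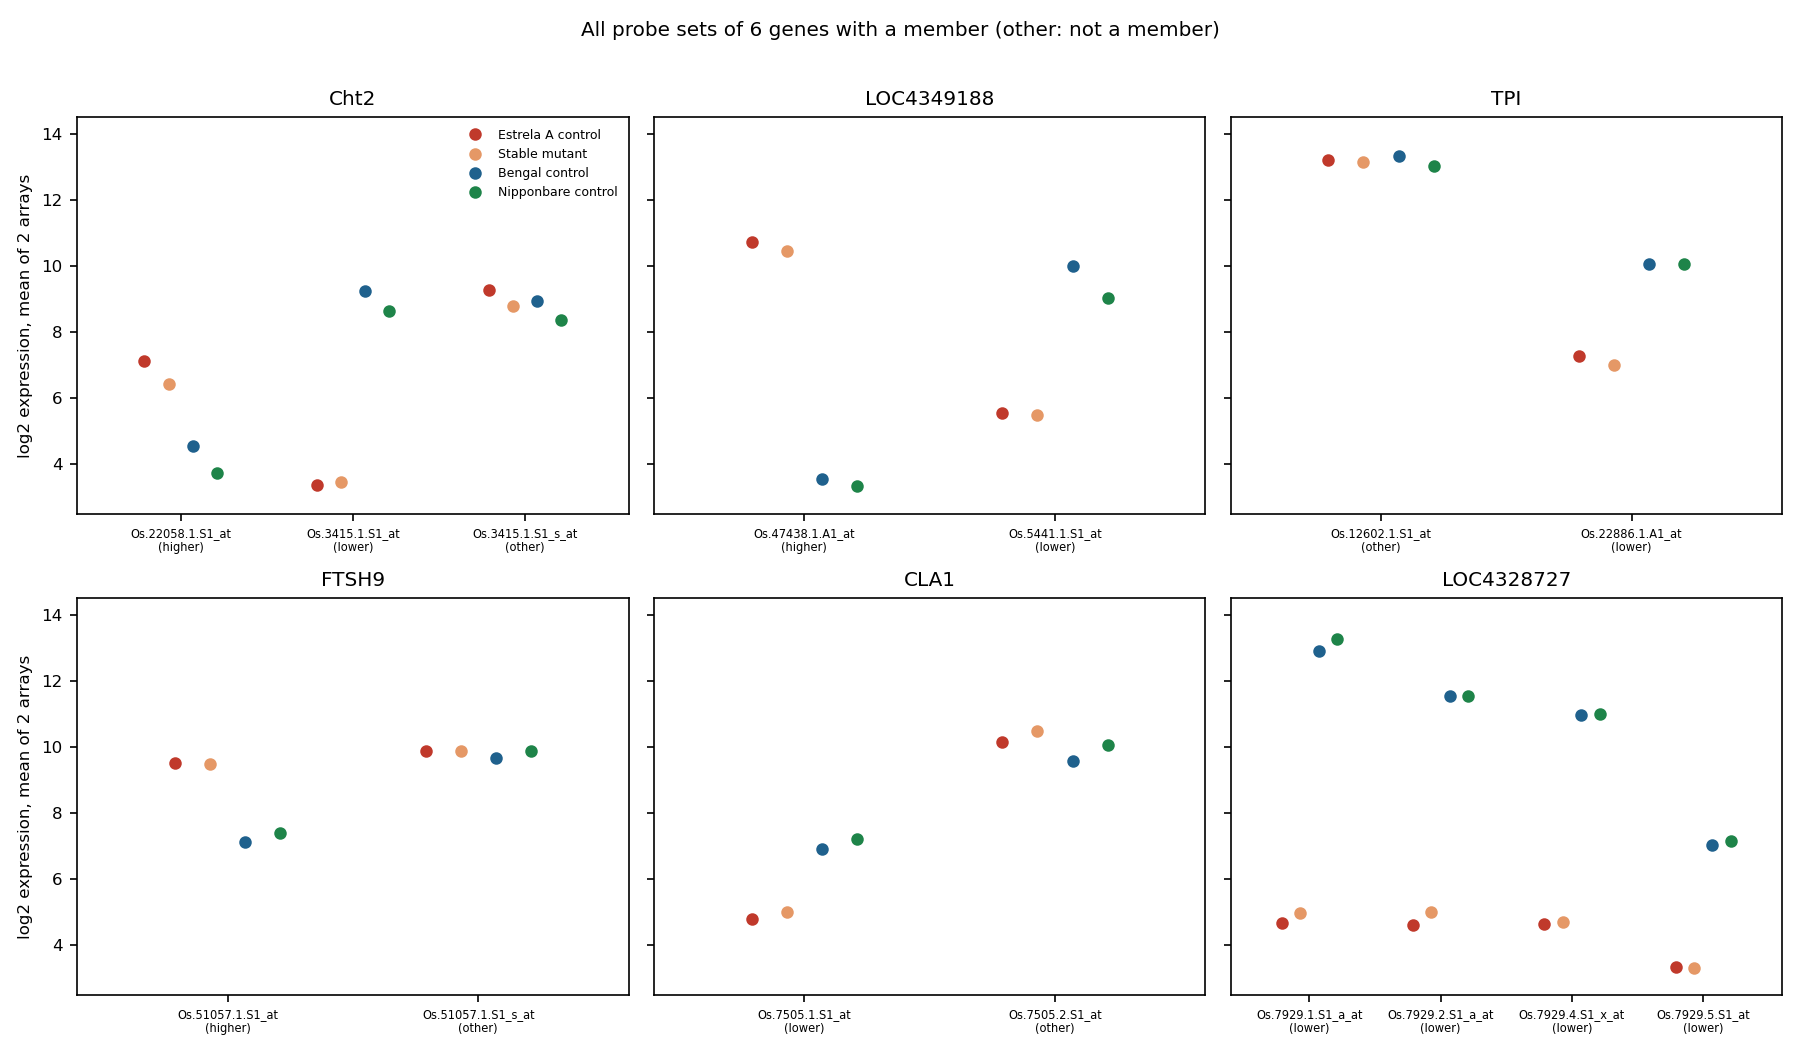
Mean log2 expression of 2 arrays (vertical axis) for every probe set (horizontal axis) of 6 member genes, in the Estrela A control, the stable mutant and the Bengal and Nipponbare controls. Cht2 and LOC4349188 have probe sets on both sides, TPI, FTSH9 and CLA1 each have 1 level probe set, and LOC4328727 is lower in Estrela A on all 4.

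Some member genes were neighbours. With at most 5 genes between them, 35 of the 121 genes (28.9%) fell into 16 runs. The share was 16.8% of 125 genes for the set of Bengal and 24.7% of 239 for that of Nipponbare. These differences were not tested, and the size of a set also affects the share. The share for measured genes in general was not taken, so 28.9% cannot be called high or low. The longest run was the 4 adjacent genes LOC4339505 to LOC4339508, all lower in Estrela A. LOC4339507 averaged 3.86 against 9.28 in Bengal and 9.73 in Nipponbare, and LOC4339505, the brightest, read 9.0 on both arrays against 11.01 to 11.32. LOC4352346, higher in Estrela A, stood 1 gene away from the adjacent LOC4352347 and LOC4352348, each lower on 1 probe set, with gaps of -2.93 and -2.12.

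The members were also counted in the gene lists used for the series. Of 737 measured genes in 21 lists, chosen with earlier results of these data known, 2 were members (0.271%). The lists could hold only genes with an informative name, of which 0.448% were members, against 0.676% of all measured genes. These shares were not tested against each other. The 2 list members were Cht2 among defence and resistance genes and XTH8 among cell wall genes, and the other 19 lists had none. Those 19 included WRKY factors, heat shock genes, the 43 heading date genes and the 22 genes of gibberellin, brassinosteroid and strigolactone. At a share of 0.448%, lists of these sizes would mostly hold none, so the empty lists are no result about the members.

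The stable mutant carried the Estrela A state of nearly all members. Its arrays took no part in the choice, and neither did those of the other 3 lines, so the contrasts between the mutant and those lines test the members on separate arrays. Against the stable transgenic line in Bengal, 78 of the 83 higher members were higher in the mutant and 235 of the 244 lower members were lower (limma, adjusted p under 0.05). Over all probe sets 6.13% were called higher and 5.82% lower in that contrast. The median difference was 2.87 log2 units for the higher members and -3.54 for the lower ones, against 0.04 for all probe sets.

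Against the unstable transgenic line in Nipponbare, 76 higher and 241 lower members passed in the direction of the cultivar, where 19.3% and 14.3% of all probe sets were called. Against the unstable mutant in Nipponbare, 73 and 221 did so, where 4.5% and 4.81% were called. All 3 contrasts together were passed by 72 of the 83 higher members (background 1.38%) and 218 of the 244 lower members (background 1.54%). The mutant differed from the mean of the other 3 lines by at least 2 log2 units in 65 higher and 230 lower members.

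The gaps of the lines ran largely in the order of the gaps of the controls. Across the 83 higher members, the gap between the controls and the gap between the mutant and the other 3 lines had a Pearson r of 0.919, and across the 244 lower members one of 0.923. These are descriptions across probe sets, which are not independent replicates, and the gap between the controls is the measure that chose the members. Os.6645.1.S1_at, for example, lay 10.09 log2 units lower in the mutant than in the stable transgenic line (SE 0.24, limma adjusted p = 4.03e-11), and OsAffx.16037.2.S1_at lay 9.20 higher (SE 0.14, adjusted p = 1.15e-12).

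**Figure D3:**
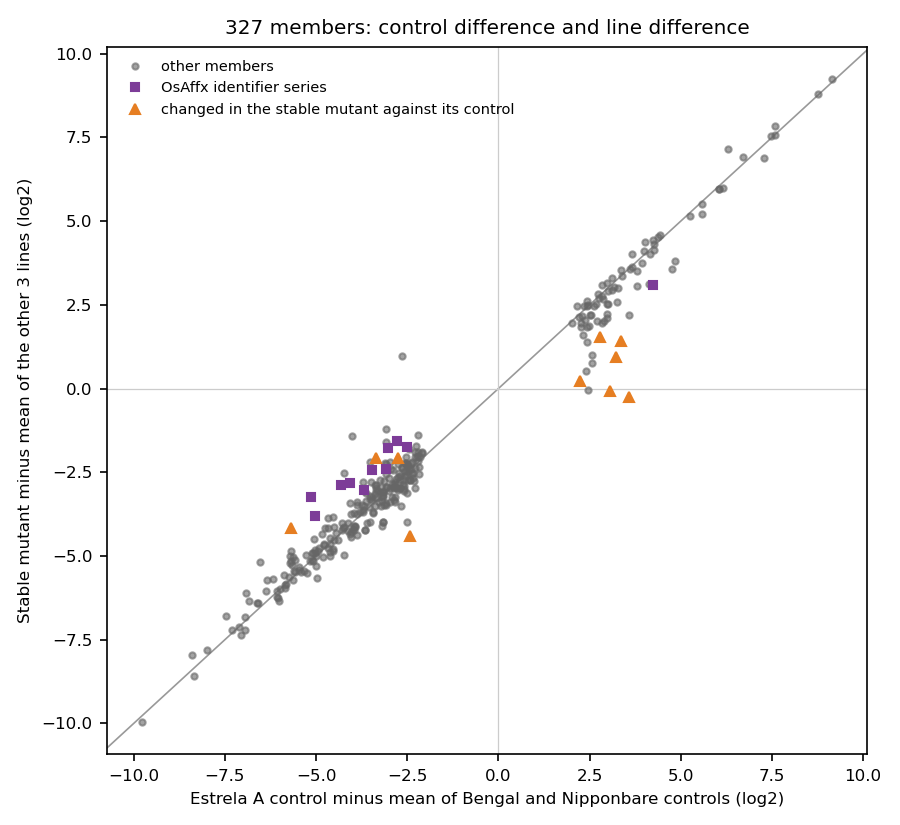
Each point is 1 of the 327 members, with the Estrela A control minus the mean of the Bengal and Nipponbare controls on the horizontal axis and the stable mutant minus the mean of the other 3 lines on the vertical axis, both in log2 units; the line marks equal values. Most points lie along that line, and triangles (members that changed in the stable mutant) and squares (the OsAffx identifier series described below) lie mostly off it.

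Against its own control, the stable mutant was within 0.5 log2 units for 70 of the 83 higher and 212 of the 244 lower members, and within 1 for 76 and 237. That is 95.7% of members within 1 log2 unit, against 99.8% of all probe sets. Here the Estrela A control arrays also served in the choice of members. The mutant lay nearer the mean of the other 2 controls in 6 higher members and in 1 lower member, LOC4325422, whose Estrela A arrays read 7.75 and 4.42 and whose mutant arrays read 5.84 and 9.45.

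In 10 members (3.06%) the mutant passed against its control, where 0.131% of all probe sets were called (0.0682% higher, 0.0629% lower). Of these 10, 6 were higher members that fell, 3 were lower members that rose, and 1 was a lower member that fell further. In 9 of the 10 the mutant moved toward the other cultivars. The Estrela A control arrays also chose the members, and that choice favours both this direction and a share above the background.

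Os.21626.1.S1_s_at, with no gene name, read 8.37 and 8.11 in the Estrela A control and 4.06 and 4.42 in the mutant. The other 10 arrays read 4.32 to 4.93. The mutant thus stood with the other cultivars, 4.0 log2 units below its parent (SE 0.18, limma adjusted p = 5.05e-07).

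OsAffx.31431.1.S1_at, also unnamed, read 6.5 and 6.34 in the parent and 3.14 and 3.31 in the mutant, against 3.15 to 3.47 on the other 10 arrays. It fell by 3.20 on the log2 scale (SE 0.12, limma adjusted p = 5.22e-08). LOC4346073 (Os.55500.1.S1_at) read 6.44 and 6.69 in the parent, 4.69 and 4.74 in the mutant and 4.23 to 4.65 elsewhere. For these 3 probe sets the mutant passed none of the 3 contrasts with the other lines.

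In 3 other higher members the fall was partial. Os.26863.1.A1_a_at read 6.71 and 6.48 in the parent and 4.62 and 4.14 in the mutant, still above the 3.26 to 3.49 of the other 10 arrays. LOC4349978 (Os.51060.1.S1_at) read 11.0 and 10.81 in the parent and 9.09 and 9.02 in the mutant, against 6.65 to 8.48 elsewhere. Os.55251.1.A1_at read 11.54 and 11.25 in the parent and 10.35 and 10.42 in the mutant.

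LOC4345232 (Os.19018.2.S1_at) was the member that moved away from the other cultivars. It read 6.35 and 6.65 in the parent, 5.04 and 4.56 in the mutant and 8.70 to 9.47 on the other 10 arrays. The mutant fell by 1.70 on the log2 scale (SE 0.15, limma adjusted p = 0.000208). Its other member probe set, Os.49809.1.S1_x_at, averaged 5.89 in the parent and 5.21 in the mutant, and did not pass (limma adjusted p = 0.0513). The 3 lower members that rose were unnamed. Os.12865.1.S1_at went from 5.58 and 5.65 to 6.64 and 7.60, Os.4620.1.S1_at from 5.70 and 6.58 to 7.73 and 7.58, and Os.27373.1.S1_at from 5.21 and 5.36 to 6.01 and 5.79.

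Fitted on the 4 Estrela A arrays alone, 5 of the 10 passed (background 0.0909%). Os.55251.1.A1_at and Os.27373.1.S1_at lost their call without any 1 of the 4 arrays (highest adjusted p = 0.249, without stable mutant replicate 1, and 0.371, without the same array). Os.4620.1.S1_at lost it without either mutant array (0.200 without replicate 1, 0.122 without replicate 2) and Os.12865.1.S1_at without either control array (0.158 without replicate 1, 0.132 without replicate 2).

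The other lines are set against controls that served in the choice of members. The stable transgenic line passed against Bengal in 7 members (2.14%, background 0.164%). Without stable transgenic replicate 1, stable transgenic replicate 2 or Bengal control replicate 2, 4 members passed, and 3 passed on the 4 arrays alone (background 0.049%). Among the 7, chosen here after their values were seen, Os.32889.1.S1_at read 5.80 and 5.67 in the Bengal control and 8.51 and 8.59 in the line, beside 8.13 and 8.46 in Estrela A. In the unstable transgenic line the same probe set read 11.47 and 10.42, above every other array, against 6.29 and 5.56 in the Nipponbare control. CLA1 rose within Bengal from 6.96 and 6.86 to 7.92 and 8.08 (limma adjusted p = 0.0179), away from the Estrela A level.

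The unstable transgenic line passed against Nipponbare in 44 members (13.5%, background 7.74%), 25 toward the Estrela A side and 19 away from it. This count fell to 19 without Nipponbare control replicate 1 and to 15 without unstable transgenic replicate 1. On the 4 arrays alone limma called 0 members, where 0.0612% of all probe sets were called. At an unadjusted p under 0.05 there were 95 members (29.1%), against 16.8% of all probe sets. The unstable mutant passed in 133 members (40.7%, background 22.9%), of which 67 moved toward the Estrela A side and 66 away.

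A few members nonetheless read as in Estrela A in the unstable mutant. The position of a line was expressed on a scale where 0 is the control of its own cultivar and 1 is the Estrela A control. The unstable mutant lay above 0.5, nearer Estrela A, in 30 members, the unstable transgenic line in 6 and the stable transgenic line in 3. Of the 30, 11 had identifiers from OsAffx.32209 to OsAffx.32349, a series chosen after its values were seen, and 0 of the 11 had a gene name. All 11 members of that series were among the 30, against 19 of the other 316 members. In all, 226 probe sets with identifiers in that range were tested.

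In this series, OsAffx.32209.1.A1_at read 8.76 and 8.70 in the Estrela A control, 9.05 and 8.96 in the stable mutant and 8.64 and 8.74 in the unstable mutant. The other 8 arrays read 13.61 to 14.21. OsAffx.32209.1.S1_x_at ran the opposite way, at 13.93 and 13.87 in Estrela A, 14.07 and 13.97 in the stable mutant and 13.61 and 13.66 in the unstable mutant, against 9.47 to 9.88 on the other 8. The 2 mutant groups and the Estrela A control thus stood together on both, in mirrored directions. The 2 identifiers share a number and differ only in suffix, and the second is of the shared type. Whether they read 2 separate transcripts was not tested. OsAffx.32259.1.A1_at read 5.60 and 6.30 in Estrela A, 5.45 and 5.53 in the stable mutant and 5.68 and 5.42 in the unstable mutant, against 10.11 to 11.89 elsewhere.

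Over the 11 members of the series, the unstable mutant had positions from 0.865 to 1.18, the unstable transgenic line from -0.165 to 0.134 and the stable transgenic line from -0.137 to 0.0290. The contrast of the stable mutant with the unstable mutant called 0 of the 11 (limma), with 2 at an unadjusted p under 0.05, where 9.31% of all probe sets were called in either direction. It called 11 of 11 against the stable transgenic line (background 12%) and 11 of 11 against the unstable transgenic line (background 33.7%). The series was picked for its levels in the unstable mutant, so these counts describe it. OsAffx.22955.2.S1_s_at, outside the series, read much like its higher member, at 13.92 and 14.04 in Estrela A, 13.59 and 13.77 in the unstable mutant and 9.64 to 9.93 in the Bengal and Nipponbare controls and the transgenic lines.

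In 2 lower members with a gene the stable mutant was called above the unstable mutant. LOC4348069 (Os.46728.1.S1_at) read 6.83 and 6.96 in Estrela A, 6.26 and 5.94 in the stable mutant, 10.76 and 11.05 in the Nipponbare control and 4.79 and 4.90 in the unstable mutant. LOC4346583 read 6.70 and 7.09, 6.67 and 6.79, 10.49 and 10.58, and 5.74 and 5.82 in the same order. The stable mutant lay above the unstable mutant by 1.26 log2 units for the first (SE 0.34, limma adjusted p = 0.0166) and by 0.95 for the second (adjusted p = 0.00167). These were the 2 lower members called against the direction of the cultivar in that contrast. The other probe set of LOC4346583 was level, at 9.71 in Estrela A, 9.77 in Bengal and 9.29 in Nipponbare.

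**Figure D4:**
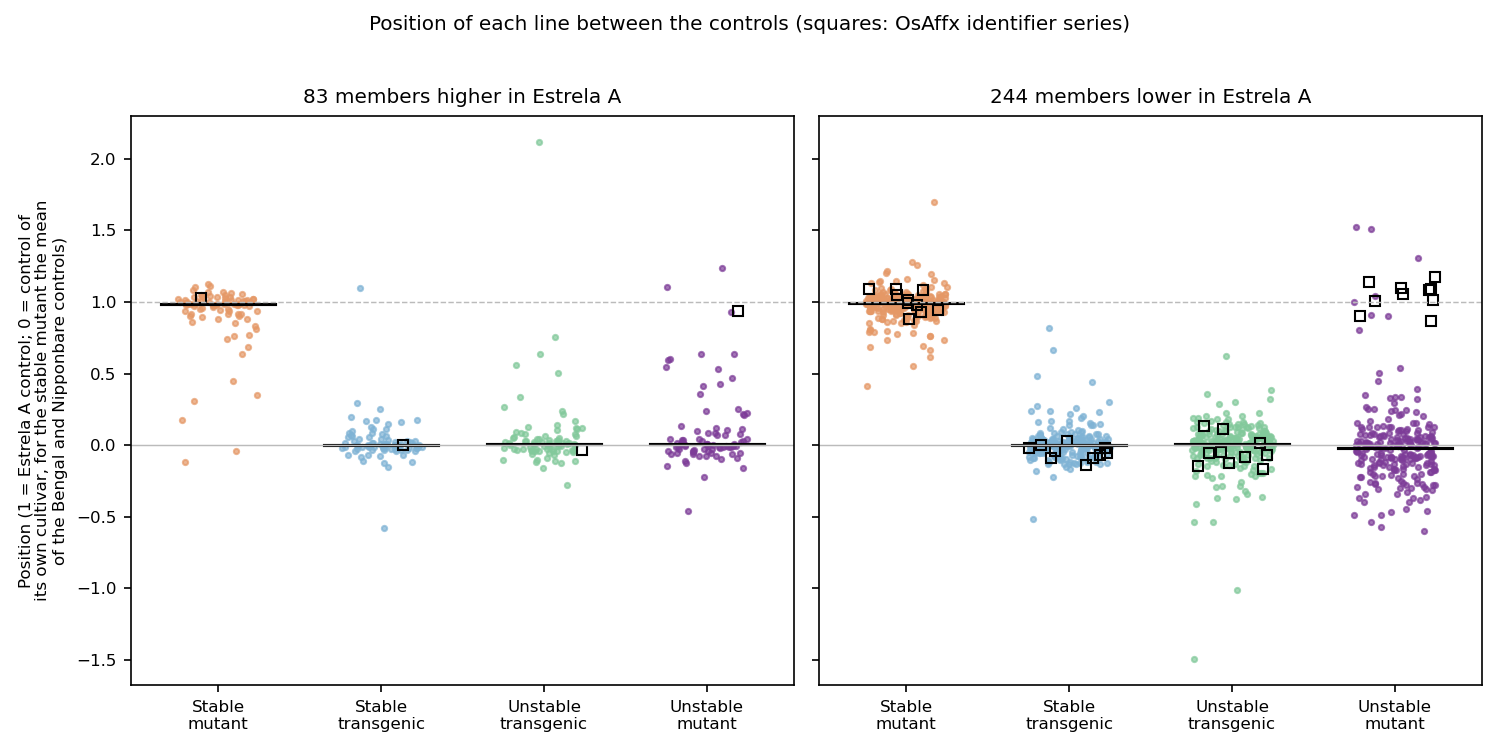
Position of each member (vertical axis, no unit) in the 4 modified lines (horizontal axis), for the 83 higher and 244 lower members, where 1 is the Estrela A control and 0 is the control of the line's own cultivar, or for the stable mutant the mean of the Bengal and Nipponbare controls. Bars mark medians, which lie near 1 for the stable mutant and near 0 for the other lines, and the squares, which are the OsAffx identifier series, lie near 1 in the unstable mutant.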

How the data were processed

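Per the labels, the authors made the deposited log2 values with Robust Multichip Average in Partek (background correction, quantile normalization over all arrays, log2, median polish). The sources used here do not give versions. All 14 columns were used as deposited, with 187 control probe sets left out. Replicate 1 has a number in its title and replicate 2 has none. Array medians lay between 5.83 and 5.89, and 0 pairs of arrays were identical.

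Contrasts were fitted by limma 3.58.1 (R 4.3.3) over 57194 probe sets, with 1 mean per group over 14 arrays (7 residual and 4.57 prior degrees of freedom), and a two-sided call needed an adjusted p (Benjamini-Hochberg) under 0.05. The number of arrays limits the precision. The fit was tested on simulated data with known changes.

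Genes came from the array annotation through a reference gene table (assembly ASM3414082v1), whose coordinates are not printed. Members and lists were chosen with earlier results of these data known. The text names, per direction, up to 10 named genes, 6 with a LOC identifier alone, 2 without a gene, up to 10 called in the stable mutant against its control, 2 on each side of the threshold and up to 2 per list. Others were chosen after their values were seen. Replicate numbers did not pair the pools: over 21 pairs of groups the correlation of their deviations ran from -0.208 to 0.115. The alternatives were cyclic loess, a trended robust prior, 4 arrays alone, removal of dim or shared probe sets, each array left out and a replicate block. The fit without the unstable mutant arrays was added after seeing the data.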

Additional observations from a re-analysis of the deposited data

Results flagged for a closer look

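In 11 members the change of the stable mutant from its control differed from the change of the stable transgenic line from Bengal, by limma's interaction contrast (0.213% of all probe sets were called). Both controls also served in the choice of members. In 6 of these the stable mutant itself had changed. The difference of the 2 changes was -3.72 log2 units for Os.21626.1.S1_s_at (adjusted p = 4.50e-05), -3.13 for OsAffx.31431.1.S1_at (adjusted p = 2.94e-06) and -2.32 for Os.26863.1.A1_a_at (adjusted p = 0.000368). It was -1.54 for LOC4349978 (Os.51060.1.S1_at, adjusted p = 0.0445), -2.00 for LOC4346073 (Os.55500.1.S1_at, adjusted p = 0.000153) and -2.00 for LOC4345232 (Os.19018.2.S1_at, adjusted p = 0.00128).

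In 4 others the change lay in the stable transgenic line. The difference was -1.85 for Os.20589.1.S1_at (adjusted p = 0.00391), which read 4.17 and 4.01 in Bengal and 5.52 on both arrays of the line. It was -1.0 for LOC4329466 (Os.8606.1.S1_at, adjusted p = 0.0175), -2.85 for Os.32889.1.S1_at (adjusted p = 0.0150) and 2.7 for LOC4335593 (Os.15516.1.S1_at, adjusted p = 0.00247). For Os.54270.1.S1_at it was 2.47 (adjusted p = 0.0337), where neither line passed against its own control. That probe set read 4.18 and 5.01 in Estrela A, 5.70 and 6.15 in the stable mutant, 9.51 and 9.16 in Bengal and 7.91 and 8.49 in the stable transgenic line.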

How the results depend on the processing

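The count of members followed the threshold, with 499 at 1.5 and 178 at 3 log2 units, and was 263 without the shared probe sets. It ranged from 326 to 340 with 1 control array left out. Members passing in the direction of the cultivar ranged from 310 to 315 (stable transgenic line), 316 to 317 (unstable transgenic line) and 289 to 295 (unstable mutant) with 1 array left out, and no other alternative except the removal of shared probe sets (251, 254 and 237) took them outside 293 to 320. On 4 arrays alone, the counts against the own control were 5 for the stable mutant, 3 for the stable transgenic line and 0 for the unstable transgenic line (limma, 95 at an unadjusted p under 0.05), which leaves 2 residual degrees of freedom. With 1 array left out they ranged from 7 to 9, from 4 to 5 and from 15 to 43, and from 90 to 115 for the unstable mutant.

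The replicate numbers did not pair the pools. With the replicate block the counts were 314, 317 and 293 against the other lines and 8, 6, 43 and 132 against the own controls. The calls of Os.27373.1.S1_at (adjusted p = 0.0885) and Os.55251.1.A1_at (0.0570) in the stable mutant were lost with it. For the 39 probe sets followed in the stable mutant, 405 of 426 values under alternatives kept their call or stayed within the spread of the arrays, 21 lost the call and 0 turned sign while called. Only the 10 probe sets called in the main fit could lose a call, so all 21 losses fell on these. Except under cyclic loess, the probe sets not called in the main fit could only stay within that spread or gain a call. The 405 values therefore overstate how stable the calls were. The level of the dim side is not resolved, since signal over background was not tested.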
